A study of Mus musculus with 375 samples.

Results

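The 46 mitosis and G2/M genes described here are genes whose products drive cells from the end of DNA replication through chromosome segregation and cytokinesis. They were taken by name from a list of such genes and looked up in a table of 23420 genes measured in single Lgr5-positive cells, where all 46 were found. No measured value served as a criterion, but earlier results of these data were known when the genes were chosen. The cells came from mouse small intestine, from mice on a control diet or on a high-fat diet (HFD), and were isolated by flow cytometry for Lgr5, the receptor that marks the stem cells of the crypt base. Libraries were made with Smart-seq2, which copies full-length cDNA of a single sorted cell. By their titles the cells belong to 4 sets, named control 1, control 2, HFD 1 and HFD 2 here, so that each diet has 2 sets. The series title concerns how diet affects MHC class II in the intestinal epithelium. No strain, age, sex, allele or feeding time is given in the labels, and whether each set is a different mouse is not stated. The p-values below therefore measure only the spread between these 4 sets, which may be technical. Values in every set are given throughout in the order control 1, control 2, HFD 1 and HFD 2.

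Entry into mitosis rests on cyclin-dependent kinase 1 (Cdk1) bound to A- and B-type cyclins. The anaphase-promoting complex then destroys the cyclins and the inhibitor of separase, which lets chromosomes part and the cell divide. Transcripts of these genes are held low in G1 and rise together in late S phase and G2 under the MuvB complex with B-Myb and FoxM1, which recognises a promoter element called the cell cycle genes homology region (CHR), often beside CCAAT boxes bound by NF-Y. Stem cells at the base of intestinal crypts are known to divide often, so a sorted population can hold cells in every phase.

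Of 375 cells, 367 had at least 2000 genes above 0 and were used, 93, 91, 91 and 92 by set. The median number of genes detected per cell was 6895, 6130, 6857 and 6348.5. Values are in TPM, transcripts scaled to a constant total per cell, from which the number of reads cannot be recovered. Rn45s, the precursor of ribosomal RNA, made up 39.1, 24.6, 26.9 and 18.6% of each set's TPM, with the highest share in control 1. Lgr5 was at 1 TPM or more in 95.7, 93.4, 95.6 and 94.6% of cells, and the leukocyte gene Ptprc reached that level in 1 of the 367 cells. Cells with 3 or more Paneth or 3 or more goblet markers at 10 TPM or more numbered 10, 7, 29 and 21, so more such cells were in the HFD sets. A cell is called positive for a gene at 1 TPM or more.

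The promoter elements named above were more frequent among these genes than among all promoters, but not every gene had them. RefSeq entries (GRCm38.p6) existed for 39 of the 46 genes, as 43 promoters, because 4 genes had 2 overlapping entries. The 250 bases before the start were searched on both strands for a CHR core, spelled TTTGAA or TTCGAA, and for CCAAT. A CHR core was in 18 of 43 promoters (41.9%), against 17.1% of all 32851 promoters in the table. Within the last 50 bases before the start it was in 11 (25.6%), against 2.77% of all promoters. CCAAT was in 34 of 43 (79.1%, against 33.9%), at least 2 copies in 51.2% (against 10.1%), and both elements in 39.5% (against 6.02%). These are matches of letters only and no binding was measured. The 120 bases before the start are printed 5′ to 3′ on the strand of the gene for 7 of the genes. CHR cores and CCAAT boxes, or their reverse complements, are in capitals. CHR cores within the last 50 bases are more frequent among these 7 than among the 43 promoters.
Top2a, chr11:99024190-99024309, minus strand: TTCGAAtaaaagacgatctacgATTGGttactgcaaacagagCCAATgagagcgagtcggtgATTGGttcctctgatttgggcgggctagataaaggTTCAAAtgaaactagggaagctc
Hmgb2, chr8:57511723-57511842, plus strand: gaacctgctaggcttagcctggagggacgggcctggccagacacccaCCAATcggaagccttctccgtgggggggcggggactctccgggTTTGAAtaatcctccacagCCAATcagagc
Depdc1a, chr3:159495313-159495432, plus strand: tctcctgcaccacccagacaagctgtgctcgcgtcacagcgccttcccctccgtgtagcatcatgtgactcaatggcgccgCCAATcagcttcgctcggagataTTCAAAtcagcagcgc
Kif11, chr19:37376262-37376381, plus strand: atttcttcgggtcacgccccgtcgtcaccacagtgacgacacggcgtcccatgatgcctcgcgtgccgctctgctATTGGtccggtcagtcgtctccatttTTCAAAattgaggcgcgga
Ccnb2, chr9:70421555-70421674, minus strand: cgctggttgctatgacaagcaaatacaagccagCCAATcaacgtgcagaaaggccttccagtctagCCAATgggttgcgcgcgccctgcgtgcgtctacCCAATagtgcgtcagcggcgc
Hmmr, chr11:40733438-40733557, minus strand: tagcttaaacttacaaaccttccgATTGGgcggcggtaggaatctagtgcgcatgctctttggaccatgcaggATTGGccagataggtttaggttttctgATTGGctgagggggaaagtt
Birc5, chr11:117849117-117849236, plus strand: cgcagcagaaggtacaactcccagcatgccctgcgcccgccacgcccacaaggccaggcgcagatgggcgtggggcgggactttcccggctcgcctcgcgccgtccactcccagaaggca

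In this set Top2a, Hmgb2, Depdc1a and Kif11 carry a CHR core that begins 23, 30, 16 and 19 bases before the start, with CCAAT boxes upstream or beside it. Ccnb2 has 3 CCAAT boxes in the stretch shown and its only CHR core 167 bases before the start, outside it. Hmmr shows 3 CCAAT boxes in the stretch printed, of 5 in the 250 bases searched, and has no CHR core in those 250 bases, and Birc5 has neither element in them. Among promoters not printed, a CHR core began 15 bases before the start of Cdk1, 18 before that of Cdc20 and 29 before that of Ube2c. Hmmr, Birc5 and Hmgb2 return below as the genes positive in the largest shares of cells, and Depdc1a as one of the genes seldom positive in cells with few of the others.

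The genes were detected together in some cells and not in others. A cell was positive for a mean of 21.2, 20.2, 23.1 and 19.2 of the 46 genes. These means hide 2 separate humps: 191 of 367 cells were positive for 15 or fewer, 112 for 31 or more, and 64 for 16 to 30. These ranges were chosen after seeing the data. The high range held 29.0, 29.7, 35.2 and 28.3% of cells, with 95% Clopper-Pearson intervals of 20.1 to 39.4, 20.5 to 40.2, 25.4 to 45.9 and 19.4 to 38.6%. Such intervals cover counting error only. The low range held 48.4, 57.1, 47.3 and 55.4% of cells. Few cells lay near the upper edge, since 6, 4, 4 and 1 cells had 28 to 33 of the genes. All 46 genes were positive in 6, 6, 2 and 5 cells. The 4 sets overlap throughout, and no diet stands apart: the HFD mean exceeded the control mean by 0.43 genes per cell, less than the SD between sets of 2.02.

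**Figure D1:**
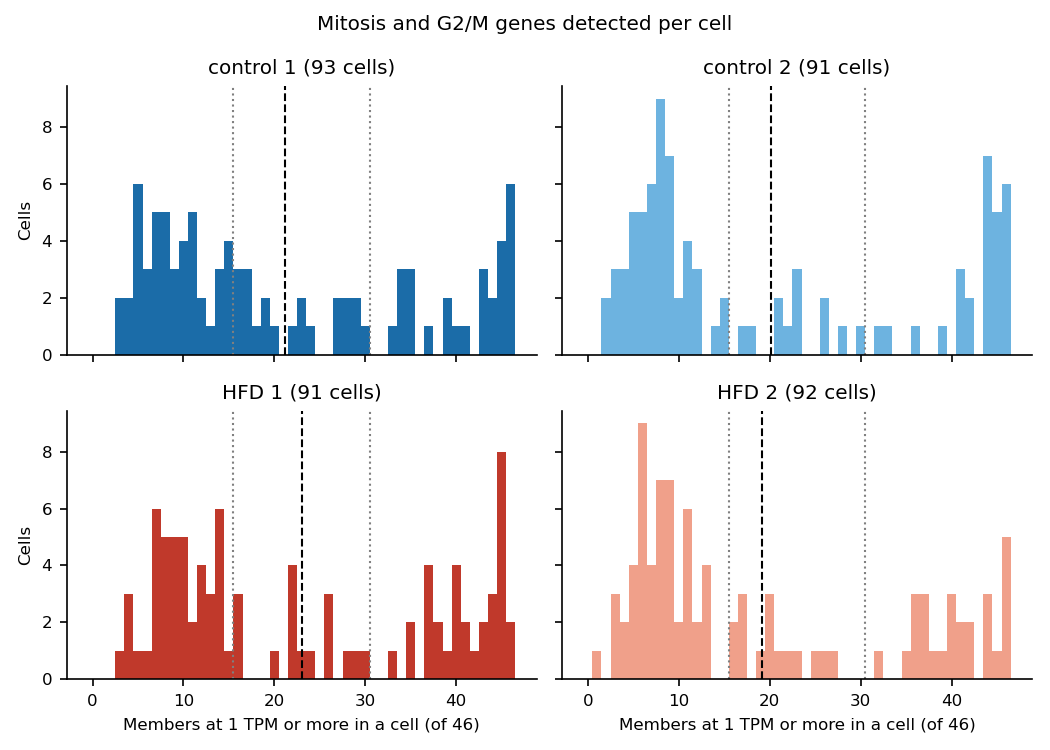
Number of cells (vertical axis) by how many of the 46 mitosis and G2/M genes were at 1 TPM or more in the cell (horizontal axis), 1 panel per set; the dashed line is the mean (21.2, 20.2, 23.1 and 19.2) and the dotted lines separate 15 or fewer, 16 to 30 and 31 or more. Every set has a hump at 15 or fewer and another at 31 or more, with fewer cells between.

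Pairs of the genes varied together across the cells of a set. The median Spearman rho over the 1035 pairs was 0.63, 0.71, 0.65 and 0.63, and the share of pairs with a positive rho was 97.3% in HFD 1 and 99.2% or more in the other sets. These are descriptions over single cells, which differ in the number of genes detected. The number of the genes positive in a cell also followed the number of all genes detected, with a rho of 0.63, 0.79, 0.75 and 0.72. Cells of the low range had medians of 6622, 5669.5, 6162 and 5786 genes detected and those of the high range 7570, 7007, 7701.5 and 7032.5, so the high range was richer in detected genes in every set. The part of the number of genes detected in this pattern was not tested.

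**Figure D2:**
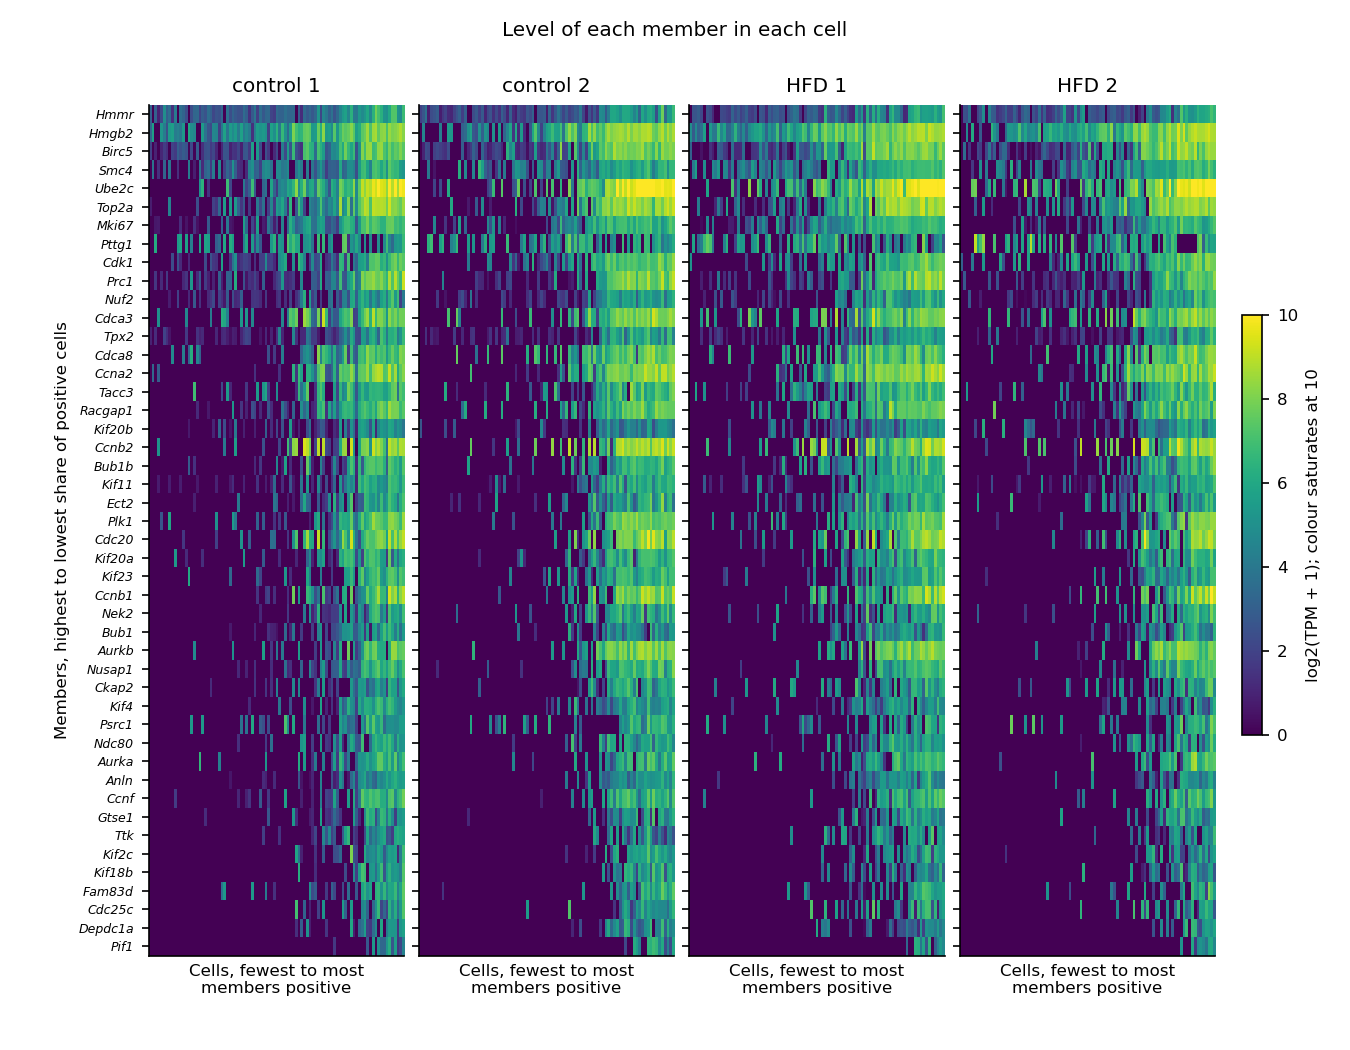
Level of each of the 46 genes (rows, from the highest to the lowest share of positive cells) in each cell (columns, from the fewest to the most genes positive), 1 panel per set, as log2(TPM + 1) with the colour at its limit at 10. Hmmr, Hmgb2, Birc5 and Smc4 are detected in most cells, the rows below fill only toward the right of each panel, and Pttg1 is scattered across all cells.

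The genes differed most in how many low-range cells were positive. For each gene, cells were sorted into these ranges by the other 45 genes, so that a gene did not place its own cells. Between 191 and 199 cells then fell in the low range and 112 in the high range. Pif1, a DNA helicase, was positive in 0 of 191 low-range cells, which allows a share of up to 1.57%, and in 42.9% of high-range cells. Depdc1a, Kif18b and Kif2c were positive in 1 low-range cell each (0.52%) and in 68.8, 77.7 and 77.7% of high-range cells. Kif18b and Kif2c are kinesins that shorten microtubules at their ends. At the other end, Hmmr was positive in 87.4% of low-range and 99.1% of high-range cells, Hmgb2 in 83.9, Birc5 in 70.7 and Smc4 in 64.5% of low-range cells and in every high-range cell. A positive call for these 4 genes therefore says little about whether the other genes are present.

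Level separated the ranges where presence did not. In positive cells, mean log2 TPM of Birc5 was 2.18 in the low range and 7.56 in the high range, that of Hmgb2 4.84 and 8.05, that of Hmmr 2.33 and 5.04, and that of Smc4 3.68 and 5.95. Tpx2 (1.11 and 5.08), Nuf2 (1.51 and 5.27) and Prc1 (1.76 and 6.92) were also positive in 27.5, 34.7 and 34.9% of low-range cells, but at a few TPM. Ube2c was positive in 40.6% of low-range cells at 5.10 and reached 8.95 in the high range. Its mean over all high-range cells, 725 TPM, was the highest of the 46 genes.

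Pttg1, which encodes securin, the inhibitor of separase, did not follow this pattern. It was positive in 52.0% of low-range cells and 67.9% of high-range cells. Its mean was 35.2 TPM over low-range cells and 39.8 TPM over high-range cells. The ratio of its high-range to its low-range mean was 1.13, and the next lowest ratios were 6.16 for Smc4 and 6.27 for Psrc1. No ratio can be given for Pif1, which was not positive in the low range. In cells positive for Pttg1 a median of 18 of the other genes were positive, and in cells positive for Ccna2 a median of 36.

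Among the genes, the share of positive cells and the level in positive cells were only loosely related. Over the 46 genes the Spearman rho of the 2, each averaged over sets, was 0.25, a description across genes. Hmmr combined a share near that of Hmgb2 with one of the lowest levels. Ccnb2 stood among the highest levels at middling shares of 44.1, 42.9, 53.8 and 40.2%. Its mean was 104, 134, 125 and 115 TPM.

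**Figure D3:**
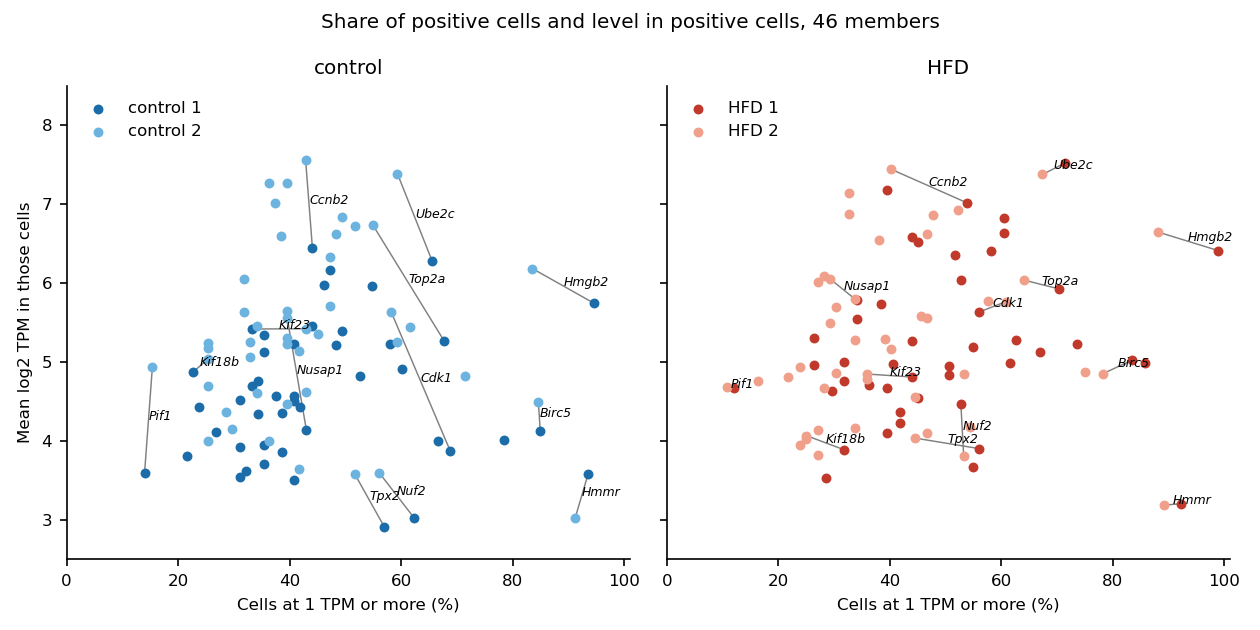
Share of cells at 1 TPM or more (horizontal axis, %) against mean log2 TPM in those cells (vertical axis) for the 46 genes, 1 point per gene and set, controls at left and HFD at right; grey lines join the 2 sets of a diet for 13 labelled genes. Hmgb2 lies at upper right, Hmmr at lower right, Pif1 at far left and Ccnb2 at the top near the centre, and most control 1 points lie below those of control 2.

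Mitotic kinases spanned a broad range. Cdk1, the kinase that starts mitosis, was positive in 68.8, 58.2, 56.0 and 60.9% of cells, the largest share of the 8 kinases. Its mean was 32.7, 55.7, 47.4 and 59.8 TPM. Control 1 had the most positive cells and the lowest mean, and the diets overlap. At 10 TPM or more the shares of Cdk1 were 37.6, 49.5, 50.5 and 53.3%. At that cut-off control 1 was the lowest set and both HFD sets lay above both control sets. Ttk, the spindle checkpoint kinase Mps1, was positive in the fewest cells, 31.2, 25.3, 31.9 and 23.9%. Its mean of 8.02, 7.41, 14.3 and 6.65 TPM was highest in HFD 1, with the other HFD set the lowest. Plk1, Aurka, Aurkb, Nek2 and the checkpoint kinases Bub1 and Bub1b lay between, with shares over the sets averaging 33.5 (Aurka) to 43.6% (Bub1b).

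Among the cyclins, Ccna2, the A-type cyclin of S phase and G2, was positive in 47.3, 48.4, 60.4 and 47.8% of cells at a mean of 76.7, 98.1, 127 and 94.6 TPM. HFD 1 was highest in both and HFD 2 lay within the controls in level. Ccnb1, which carries Cdk1 into mitosis, was positive in 40.9, 37.4, 44.0 and 32.6% at 48.3, 76.8, 73.0 and 69.3 TPM. Control 1 was the low set in mean level and HFD 2 in share. Cdc25c, the phosphatase that activates Cdk1, was positive in 23.7, 25.3, 26.4 and 23.9% at 9.43, 10.2, 16.8 and 12.2 TPM. Both HFD sets lay above both control sets in mean level and the sets nearly coincided in share. Ccnf, a cyclin that serves as an F-box subunit, was positive in 31.9% on average.

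Genes of ubiquitin-dependent destruction included the highest mean of the list. Ube2c, the conjugating enzyme of the anaphase-promoting complex, was positive in 65.6, 59.3, 71.4 and 67.4% of cells at a mean of 161, 299, 295 and 269 TPM. Its share was above both controls in both HFD sets, whereas its mean was low only in control 1. Cdc20, the activator of that complex, was positive in 46.2, 36.3, 45.1 and 38.0% at 71.9, 88.9, 80.3 and 70.0 TPM, and the diets overlap. Pttg1 and Cdca3, a mitotic entry factor, were positive in 61.1 and 54.2% on average.

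At 1 TPM or more, kinetochore and passenger subunits did not keep to 1 share even within a complex. Birc5 (survivin), of the chromosomal passenger complex, was positive in 84.9, 84.6, 83.5 and 78.3% of cells at 57.6, 85.6, 95.4 and 95.6 TPM. In share both HFD sets lay below both control sets, and in mean level above. Nuf2 was positive in 62.4, 56.0, 52.7 and 53.3% at 14.3, 16.1, 23.1 and 20.7 TPM, again with the HFD sets lower in share and higher in mean level. Ndc80, its partner in the complex that grips microtubules, was positive in 34.4, 33.0, 39.6 and 30.4% at 13.9, 17.5, 16.5 and 14.9 TPM. The 2 subunits thus had similar means and, at 1 TPM or more, different shares. Nuf2 was positive in 34.7 and Ndc80 in 3.14% of low-range cells. Their shares at 10 TPM or more were closer, 26.9 to 38.5% for Nuf2 and 24.7 to 30.8% for Ndc80 over the sets. Cdca8 (borealin) was positive in 51.5% on average.

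Kinesins held the lowest and the highest difference between the diets in mean level. In percentage points of share the highest difference was also that of a kinesin, Kif20b (9.53), and the lowest that of Nusap1 (-9.58). Kif18b was positive in 22.6, 25.3, 31.9 and 25% of cells, and its mean was 11.5, 13.2, 7.32 and 7.86 TPM. The mean was lower in both HFD sets. In positive cells its geometric mean was 29.2, 32.7, 14.8 and 16.8 TPM. Kif23, which bundles the central spindle, had means of 24.2, 29.4, 21.3 and 16.1 TPM at shares of 33.3, 42.9, 44.0 and 35.9%. Kif4, a chromosome-bound kinesin, had means of 15.5, 13.5, 13.2 and 6.52 TPM at shares of 33.3, 39.6, 41.8 and 27.2%. In both genes the HFD means lay below the control means, although HFD 1 and control 2 of Kif4 differed little, and shares overlapped. Kif20b, a kinesin of cytokinesis, had means of 8.65, 7.98, 11.8 and 14.3 TPM at shares of 40.9, 41.8, 54.9 and 46.7%, and both measures were above the controls in both HFD sets. Kif11, Kif20a and Kif2c were positive in 43.4, 39.5 and 26.7% on average.

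Of the spindle and microtubule-binding proteins, Hmmr was positive in 93.5, 91.2, 92.3 and 89.1% of cells, with intervals reaching from 80.9 to 97.6%. Its mean was only 22.7, 17.7, 19.7 and 18.2 TPM, and the sets overlap. Fam83d, which places casein kinase on the spindle, was positive in 31.2, 25.3, 26.4 and 21.7% at 13.2, 15.5, 12.6 and 11.9 TPM. Its HFD means were below both control means by little. Prc1, the bundler of antiparallel microtubules, had means of 54.9, 73.1, 73.9 and 37.2 TPM at shares of 66.7, 47.3, 61.5 and 54.3%. The highest and the lowest mean both came from HFD sets. Nusap1 was positive in 43.0, 39.6, 34.1 and 29.3%, below both controls in both HFD sets, at 20.4, 33.4, 27.6 and 27.1 TPM. At 10 TPM or more its shares were 25.8, 34.1, 30.8 and 29.3%, with both HFD sets between the control sets. Tpx2, Tacc3, Ckap2, Gtse1 and Psrc1 averaged shares of 30.2 (Gtse1) to 52.3% (Tpx2).

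For cytokinesis, Racgap1, a subunit of centralspindlin with Kif23, was positive in 52.7, 47.3, 51.6 and 45.7% of cells at 41.6, 57.2, 63.0 and 46.9 TPM, and the diets overlap in both. Anln (anillin), a scaffold of the contractile ring, was positive in 31.2, 34.1, 39.6 and 27.2% at 8.35, 10.9, 10.7 and 7.50 TPM. The HFD sets were the highest and the lowest share of Anln, so the diets overlap. Ect2, the third gene of this group, was positive in 42.8% on average.

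Chromosome and chromatin genes were the most widely detected group. Hmgb2, which bends DNA, was positive in 94.6, 83.5, 98.9 and 88.0% of cells at 99.9, 138, 155 and 154 TPM. Both HFD means were above the control means and the shares overlap. Smc4, the core ATPase of condensin, was positive in 78.5, 71.4, 85.7 and 75% at 25.3, 31, 43.3 and 38.3 TPM, with the same order of means. Mki67, which coats mitotic chromosomes, was positive in 60.2, 59.3, 73.6 and 53.3% at 38.0, 38.9, 44.4 and 28.7 TPM, and its highest and lowest values both came from HFD sets. Top2a, which untangles DNA, was positive in 64.3% on average. The helicase Pif1 closed the list at 14, 15.4, 12.1 and 10.9% of cells, with intervals reaching from 5.34 to 24.5%, at 3.06, 7.77, 4.62 and 3.76 TPM. Depdc1a had shares of 21.5, 29.7, 28.6 and 16.3% and means of 5.35, 9.95, 4.98 and 7.04 TPM, with no order by diet.

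**Figure D4:**
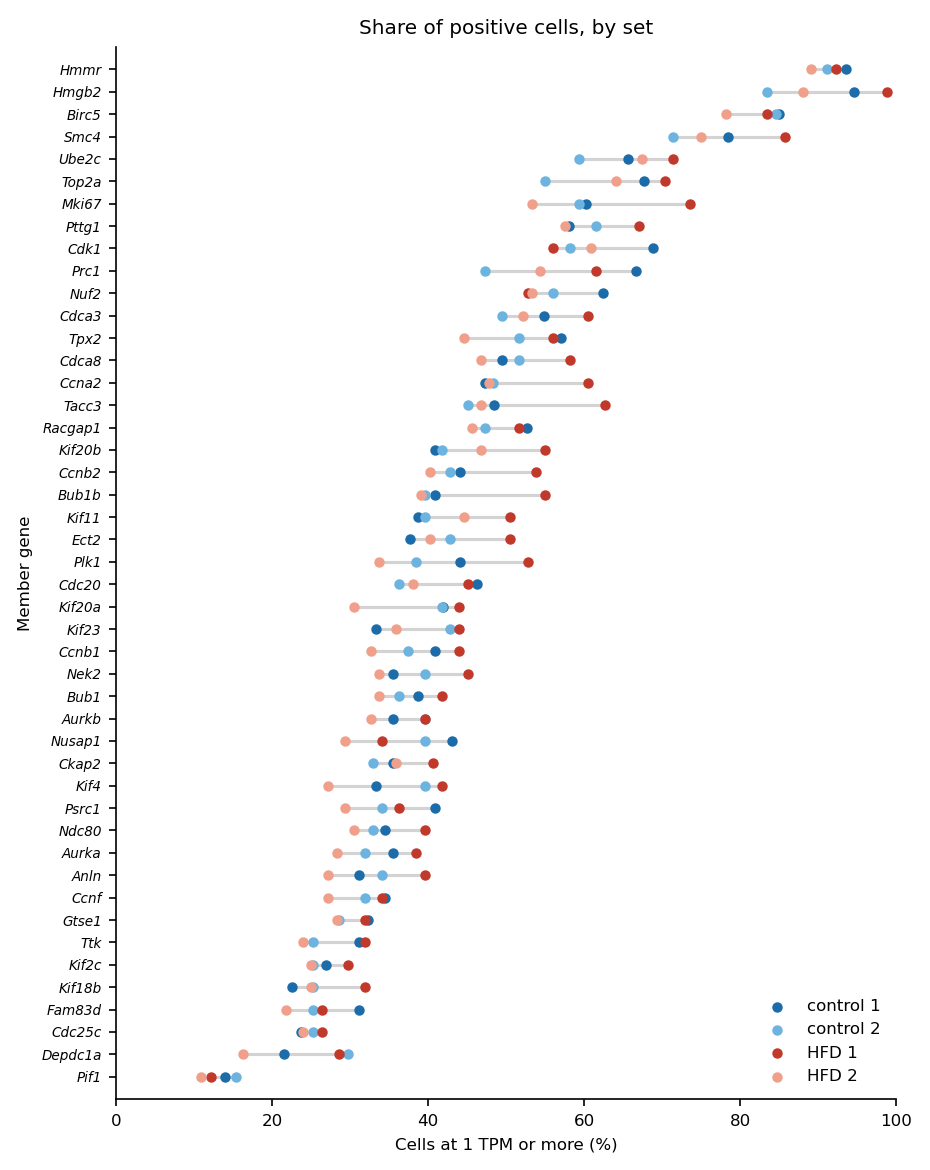
Share of cells at 1 TPM or more (horizontal axis, %) for each of the 46 genes, 1 point per set, with a grey line from the lowest to the highest set. HFD 1 is the highest set for 30 genes and HFD 2 the lowest for 28. The same counts over all genes are not given.

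Diet was tested with limma on the 4 set values, adjusted by the Benjamini-Hochberg method over all genes tested, in 3 fits. All 46 genes passed the filter on low values in each. On log2(mean TPM + 1), 0 of the 46 genes passed an adjusted p of 0.05, beside 59 of 11667 genes tested (0.506%). None of the 46 had an unadjusted p under 0.05 either, against 11.1% of all genes. On the share of positive cells, 0 of 46 passed, beside 0 of 11983 (0.0%), and unadjusted p-values under 0.05 were found for 0 of the 46 and 3.54% of all genes. On the mean log2 TPM in positive cells, 0 of 46 passed, beside 0 of 11315 (0.0%), and 3 of 46 (Kif18b, Nusap1 and Nuf2) had an unadjusted p under 0.05, beside 7.34% of all genes. The lowest limma adjusted p among the 46 was 0.463 for Smc4 in mean level, 0.644 in level in positive cells and 1.0 in share.

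The differences behind these tests, HFD minus control on log2(mean TPM + 1), ran from -0.63 to 0.59. The lowest were Kif18b at -0.63 (SE 0.33, limma adjusted p 0.485), Kif4 at -0.58 (SE 0.34, limma adjusted p 0.542), Kif23 at -0.50 (SE 0.28, limma adjusted p 0.52), Depdc1a at -0.27 (SE 0.38) and Prc1 at -0.27 (SE 0.29). The highest were Kif20b at 0.59 (SE 0.32, limma adjusted p 0.514), Smc4 at 0.52 (SE 0.26, limma adjusted p 0.463), Nuf2 at 0.50 (SE 0.29), Cdc25c at 0.50 (SE 0.32) and Birc5 at 0.44 (SE 0.25). The median over the 46 was 0.17 and over all genes 0.13, so the list lay 0.05 from the rest. With Rn45s left out of the total the median over all genes moved to -0.05. The 10 genes named here kept their sign under that scaling. Under other settings Nuf2 changed to -0.34 within the interquartile range of genes detected, Prc1 to 0.03 with no filter on cells and to 0.22 without HFD 2, and Depdc1a to 0.13 without control 2, and Kif20b was 0.06 within that range. In positive cells Kif18b differed by -0.97 (SE 0.29) and Nusap1 by 1.07 (SE 0.41), both with a limma adjusted p of 0.644, and the medians were 0.35 over the 46 genes and 0.17 over all genes.

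Counts of genes whose sets did not overlap were close to or below those over all genes. In mean level both HFD sets lay above both control sets for 12 of 46 genes, beside 29.5% of all genes, and below for 4 (Kif18b, Kif23, Kif4 and Fam83d), beside 12.3%. In share they lay above for 4 (Kif11, Kif20b, Ube2c and Ckap2), beside 14.1%, and below for 4 (Birc5, Nusap1, Pif1 and Nuf2), beside 12.2%. With shares taken at 10 TPM or more, Kif20b, Ube2c and Ckap2 kept the higher order and Kif11 did not. None of Birc5, Nusap1, Pif1 and Nuf2 kept the lower order at that cut-off. In level in positive cells both HFD sets lay above both control sets for 15, beside 31.4%, and below for 3 (Kif18b, Kif23 and Kif4), beside 8.89%. An exact permutation of 4 sets cannot go below a p of 0.333. In the fit without control 2, the difference of Aurkb in mean level was 1.09. Mean Aurkb was 33.1, 83.5, 79.0 and 64.7 TPM, so that fit sets the HFD sets against control 1 alone, the lowest of the 4.

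Control 1 stood apart in level. In positive cells it had the lowest level for 38 of the 46 genes, and the median over the genes of mean log2 TPM in positive cells was 4.51, 5.28, 5.01 and 5.05. Over all genes with at least 5 positive cells in every set control 1 was the lowest set for 44.9%, with medians of 4.02, 4.19, 4.22 and 4.28. Of its positive values for the 46 genes, 31.4% were below 10 TPM, against 20.2, 18.7 and 20.5% in the other sets. Control 1 is also the set with the largest share of Rn45s. With TPM rescaled without Rn45s, a setting run after seeing this pattern, control 1 was lowest for 32 genes and the medians were 5.04, 5.66, 5.45 and 5.35; over all genes it was then lowest for 22.0%, with medians of 4.65, 4.52, 4.62 and 4.52. Whether the 46 genes differ from other genes in this was not tested. Within cells of the high range it was lowest for 30 genes as deposited and for 21 without Rn45s. Its share of positive cells was the lowest for 7 genes and the highest for 13.

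The 46 genes were lower where Lgr5 was higher, within every set. Spearman rho with Lgr5 over the cells of a set was negative in all 4 sets for 45 of the 46 genes (97.8%), beside 2160 of 10311 genes (20.9%) that were positive in at least 10 cells of every set. The exception was Pttg1 in HFD 1, at 0.02. The median rho over the 46 genes was -0.17, -0.21, -0.20 and -0.19, and over all genes -0.02, -0.04, -0.04 and -0.02. All of these are weak relations over single cells that differ in the number of genes detected, and they are given as descriptions.

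The 3 lowest mean rho were those of Hmgb2 (-0.35, -0.28, -0.25 and -0.26), Mki67 (-0.31, -0.31, -0.20 and -0.29) and Ccnb1 (-0.17, -0.30, -0.28 and -0.29). The 3 highest were those of Nuf2 (-0.01, -0.13, -0.15 and -0.03), Ttk (-0.07, -0.10, -0.18 and -0.09) and Fam83d (-0.08, -0.11, -0.21 and -0.06). For Hmgb2 and Mki67 both control sets had the lower rho, and for the other 4 genes the diets overlap.

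The same relation showed in the level of Lgr5 itself. Median Lgr5 in low-range cells was 176, 129, 152 and 117 TPM, in middle-range cells 90.4, 59.3, 63.2 and 73.2 TPM and in high-range cells 94.7, 56.0, 58.3 and 84.5 TPM. Low-range cells were thus the highest in every set, and the other two ranges were close to each other. Few high-range cells were without Lgr5, 2, 1, 1 and 2 of them being below 1 TPM. Cells positive for a gene had the lower median Lgr5 for 41, 46, 46 and 41 of the 46 genes.

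Lgr5 was lower in cells with more genes detected, with a rho of -0.16, -0.27, -0.34 and -0.24, whereas the number of the 46 genes positive was higher in them. With the number of genes detected held constant, the median partial rho with Lgr5 was -0.11, -0.06, -0.00 and -0.09, negative for 40, 31, 24 and 38 of 46 genes. In HFD 1 the median was close to 0. Within high-range cells alone, the rho of the number of genes positive with Lgr5 was 0.12, -0.04, -0.05 and -0.34. Other stem cell genes did not all behave alike: the median rho of the 46 genes was 0.02, 0.04, -0.02 and 0.01 with Ascl2, a transcription factor of these stem cells, -0.12, -0.35, -0.32 and -0.30 with the transporter gene Slc12a2, and -0.07, -0.27, -0.22 and -0.15 with Olfm4.

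**Figure D5:**
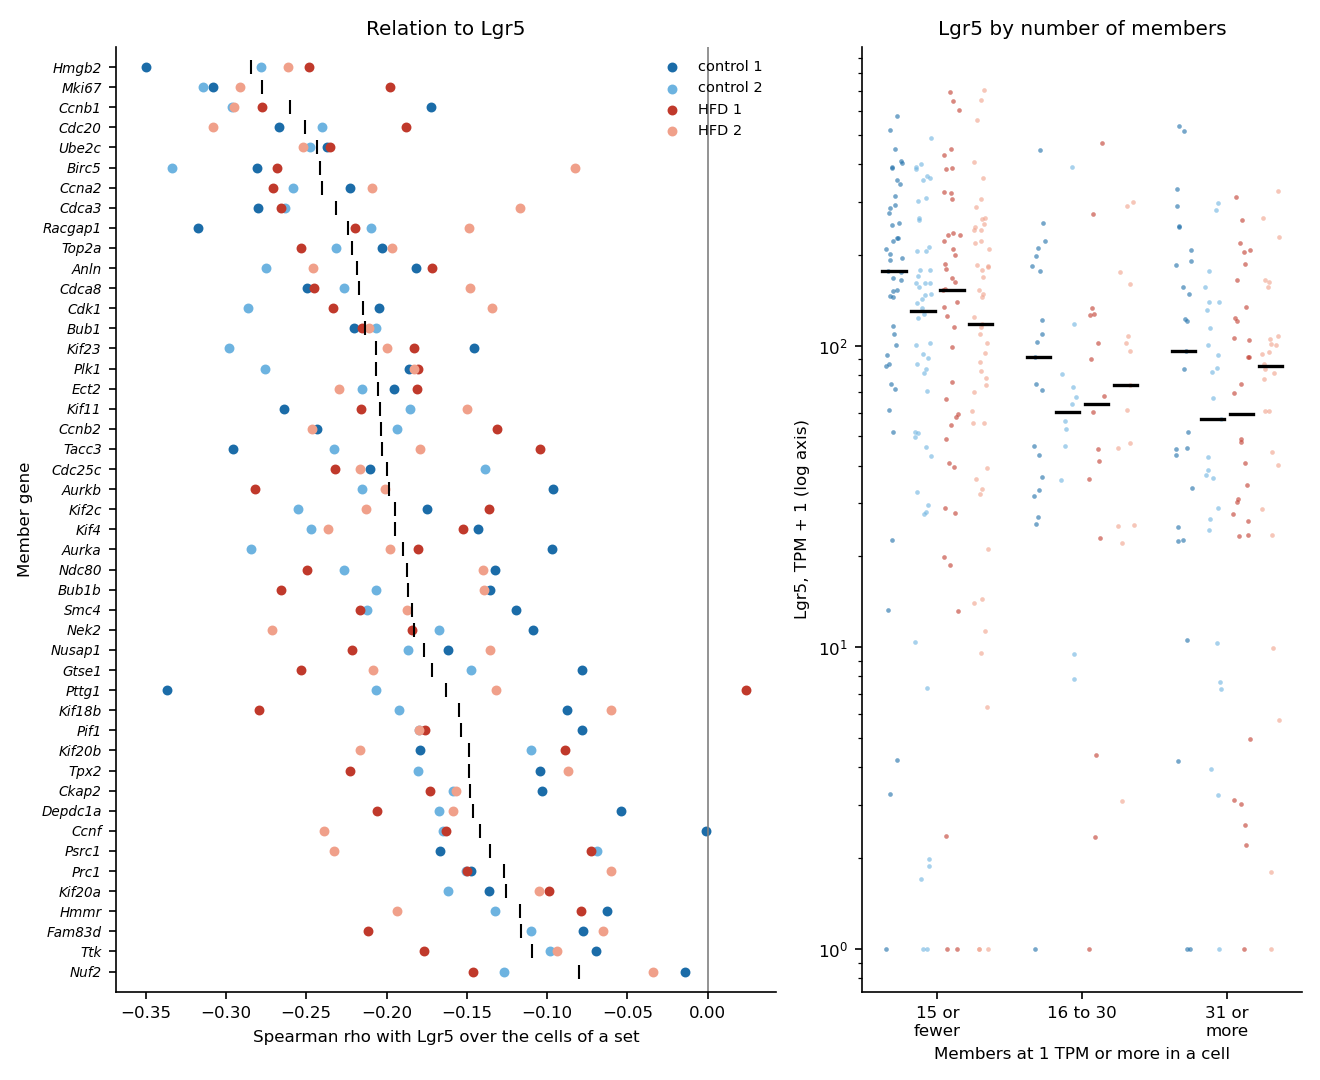
Left, Spearman rho of each of the 46 genes with Lgr5 over the cells of a set (horizontal axis), 1 point per set and a black bar for the mean; right, Lgr5 as TPM + 1 on a log axis in each cell by the number of the genes positive in it, with black bars at the medians. All points but 1 lie left of 0, and the medians at 15 or fewer genes (176, 129, 152 and 117 TPM) are above those at 16 to 30 and 31 or more.

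Neighbouring parts of the pathway were read from lists of genes. These lists, too, were chosen with earlier results of these data known. Of 114 other mitotic genes in 8 lists that were tested, none passed in share or in level in positive cells, where no gene passed at all. In mean level 1 of the 114 passed, beside 59 of all 11667 genes tested (0.506%). It was Cenpk, a subunit of the inner kinetochore, at 11.1, 7.88, 29.6 and 27.1 TPM, with a difference of 1.5 (SE 0.30, limma adjusted p 0.0118). Both HFD sets were above both control sets by far more than the sets of a diet differed, and its share of positive cells was 37.6, 37.4, 57.1 and 52.2%. Its difference ran from 1.28 to 1.72 over 14 other settings, but in 7 of them it did not pass, among them the scaling without Rn45s (limma adjusted p 0.595) and the fit without HFD 1 (limma adjusted p 0.0722). None passed among 10 MuvB, B-Myb, FoxM1 and Rb-family regulators, whose Foxm1 was at 11.9, 9.42, 12.5 and 8.27 TPM and Mybl2 at 9.04, 8.86, 8.51 and 8.41 TPM. None passed among 11 entry brakes and checkpoint genes, 15 genes of the anaphase-promoting complex, 10 of the spindle checkpoint and separase, 18 other kinesins and spindle genes, 11 of condensin and cohesin and 18 other G2/M genes. The median differences of the 8 lists ran from 0.10 to 0.31, beside 0.13 over all genes.

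Genes of DNA replication and S phase, 40 in all, gave a different picture by diet. A cell was positive for a mean of 65.7, 56.5, 72.0 and 68.6% of them, the HFD sets being 9.19 percentage points above the control sets with an SD between sets of 4.92. For the 46 mitosis and G2/M genes the means were 46.1, 43.8, 50.1 and 41.7%, a difference of 0.93 with an SD of 4.39. In mean level both HFD sets lay above both control sets for 38 of 40 S phase genes, beside the 29.5% of all genes given above, and their median difference was 0.59, yet 0 of 40 passed limma in any fit. Whether the 2 lists differ in their response to diet was not tested. Within sets, the number of mitosis and G2/M genes positive followed the share of S phase genes positive with a rho of 0.49, 0.50, 0.40 and 0.58.

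Outside the list, the genes whose level followed the mean level of the 46 most closely were Ncapg, Kif22, Tubb4b, Pbk, Tuba1b, Espl1, Ckap2l and H2afz. Their Spearman rho over the cells of a set, averaged over the 4 sets, ran from 0.80 for Ncapg to 0.78 for H2afz, against a median of 0.07 over 11937 genes. Tubb4b and Tuba1b, which encode tubulins, and the histone gene H2afz were positive in 90% of cells or more in every set, whereas Espl1, which encodes separase, was positive in 37.6, 37.4, 37.4 and 25%.

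Cells with Paneth or goblet markers were also found in the high range, where they numbered 2, 0, 8 and 8. The summed level of the 10 Paneth markers, averaged over the cells of a set, was 74.8, 38.6, 4716 and 464 TPM. It averaged 12364 TPM over the 32 high-range cells of HFD 1, and its spread over them is not given here. Of these 32, 8 were cells with Paneth or goblet markers. Without such cells a mean of 21.4, 20.8, 24.7 and 18 of the 46 genes was positive per cell, a difference of 0.23 between the diets, and 0 of 46 genes passed limma in each fit. Some values may include reads of a neighbour: exons of 12 of the genes overlap a gene on the opposite strand, over 29.3% of exon bases for Kif20a (with Cdc23), 22.8% for Ube2c (with Tnnc2), 15.1% for Kif4 (with Pdzd11), 12.7% for Cdc25c, 12.5% for Ccna2 (with Exosc9) and 11.1% for Prc1 (with Rccd1). Smart-seq2 does not mark the strand, so reads from these stretches cannot be told apart.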

How the data were processed

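The authors deposited 1 table of TPM, 1 value per gene and cell, which sum to the same total in each cell. Per the submitters' processing notes, Bowtie2, RSEM and the mouse build mm10 were used; their versions, and the annotation, are not stated in the labels. TPM keeps no counts, so no count test was run and the depth is unknown. Columns were matched to samples by title. Cells with at least 2000 genes above TPM 0 were kept (367 of 375), and TPM was averaged over the cells of a set. With limma 3.58.1 (mean-variance trend, two-sided, Benjamini-Hochberg, threshold 0.05), 2 HFD sets were compared with 2 control sets in 3 measures. These were log2(mean TPM + 1), where the mean reached 1 TPM, the arcsine square root of the share of cells at 1 TPM or more for genes positive in at least 20 cells, and mean log2 TPM in positive cells for genes with at least 5 such cells in every set. A pseudocount of 1 understates the change of low genes. The limma step was tested on simulated set values. Spearman rho with Lgr5 was computed within each set. Doublets were not searched for. Python 3.11.15, scipy 1.17.1 and pandas 2.3.3 were used.

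The genes and all lists were chosen with earlier results of these data known. All 46 genes are accounted for by role. Values in every set are given for the genes with the highest and lowest share in each role, the 5 highest and 5 lowest differences in mean level, and the 3 highest and 3 lowest rho with Lgr5; further genes are named where a count or pattern needs them, as chosen after seeing their values. Of other genes, Lgr5, Rn45s, called genes of the pathway lists and the 8 non-members most like the mean level were named, and Foxm1, Mybl2 and stem cell genes for context. Coordinates are 1-based on GRCm38 (mm10), with exons from GENCODE M21 and promoters from RefSeq. Other settings tried are scaling, cell filters, pseudocount, thresholds, leaving out each set and the set number as a block.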

Additional observations from a re-analysis of the deposited data

How the results depend on the processing

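In every alternative of each fit except leaving out control 2, 0 of the 46 genes passed limma. Without 1 set at a time, called genes ranged from 0 to 1 in mean level, from 0 to 0 in share and from 0 to 3 in level in positive cells. Set numbers only number the 2 sets of a diet; the deviations of same-numbered sets correlated at 0.23, 0.21 and 0.13 for mean level, level in positive cells and share, over 2 pairs. With the set number as a replicate block 0 of the 46 genes passed in each fit, while all genes called went from 59 to 635 in mean level and from 0 to 38 in level in positive cells.

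Over all genes, the 59 calls in mean level became 6 without Rn45s in the total, 18 within the interquartile range of genes detected, 14 with no filter on cells, 0 with no filter on low genes, 7 without cells holding Paneth or goblet markers and 81 to 148 without 1 set; the 0 calls in share became 33 within that range, 9 with no filter on cells and 102 without HFD 1, and the 0 calls in level in positive cells became 2 within that range, 4 with positive cells at 10 TPM or more, 1 without Rn45s and 8 to 35 without 1 set. The difference in genes positive per cell was -2.56 within the interquartile range of genes detected, and ranged from -1.52 to 2.38 without 1 set. The median rho with Lgr5 of -0.19 became -0.16 with no filter on cells, -0.16 within the interquartile range, -0.23 without cells holding Paneth or goblet markers, -0.064 as a partial rho given genes detected, -0.15 as Pearson r, and -0.21 in cells with Lgr5 at 1 TPM or more, and ranged from -0.20 to -0.19 without 1 set. The rho of -0.16 within the interquartile range is a mean of unlike set medians, -0.30, -0.14, -0.15 and -0.05. The cause of the changes under these settings was not tested. Of the 46 differences in mean level, 8 changed sign without Rn45s, 7 under median-ratio scaling, 14 within the interquartile range and 17 without control 1. The unknown depth and 2 sets per diet limit what differences could be detected.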
